A study of Homo sapiens with 6 samples.

Results

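A set of 10 genes that restrain MAP kinase signalling is described here in HEK293, a long-established line of human cells derived from embryonic kidney. There were 3 libraries labelled MOCS2 RNAi knockdown and 3 labelled control (wild type). The genes are the dual-specificity phosphatases DUSP1, DUSP4, DUSP5, DUSP6, DUSP8 and DUSP10, the Sprouty genes SPRY2 and SPRY4, and the Sprouty-related genes SPRED1 and SPRED2. They were picked by name as inhibitors of ERK and stress kinase signalling, with earlier results of these data known. All 10 were found among 60675 gene rows, and all 10 passed the low-count filter that left 18267 genes to test. Cells of both groups grew in high-glucose DMEM with fetal bovine serum and Geneticin, and total RNA was sequenced after ribosomal RNA removal. The labels give neither the RNAi construct nor whether the knockdown cells came from a single clone, and they leave it unsaid whether replicates came from separate cultures. The p-values therefore describe spread among these libraries only, which may be technical.

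Growth factors and stress switch on kinase cascades that end in the MAP kinases ERK, JNK and p38. Dual-specificity phosphatases remove phosphate from both the threonine and the tyrosine of an active MAP kinase, and Sprouty and SPRED proteins act further up, between the receptor and the kinase RAF. Many of these inhibitors are themselves transcribed when the cascade is active, so they form negative feedback loops, and transcripts such as DUSP6 and SPRY4 are widely used as a readout of ERK activity.

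Reads assigned to genes ranged from 17958632 to 19362299 in the knockdown libraries and from 19895547 to 22171106 in the controls. MOCS2, the gene named by the labels, stood at 69.8, 58.9 and 59.9 CPM (counts scaled to library size, after TMM) in knockdown 1, 2 and 3, against 57.8, 66.6 and 65.6 CPM in the controls. Its log2 fold change was -0.01 with a standard error (SE) of 0.14 (edgeR adjusted p = 0.976), so the targeted RNA goes against the label, and every direction here is that of the libraries labelled knockdown. Knockdown 2 stands apart in having 37.5% of its uniquely aligned reads outside genes, against 21.5% to 25.0% in the other 5 libraries. VIM, KRT8, KRT18 and NEFL, which HEK293 cells are known to express, were present in every library, as was NEFM, whereas PAX2 was at 0.905 to 1.62 CPM. In the knockdown libraries VIM lay above every control (log2 fold change 0.67) and NEFL below every control (-0.36), while KRT8, KRT18, NEFM and PAX2 overlapped the controls. Among markers of other cells, the summed level of 6 leukocyte genes was 3.90 to 6.27 CPM in knockdown and 3.10 to 5.62 CPM in control libraries, with LYZ (2.20 to 3.55 CPM) and CD14 (0.674 to 2.44 CPM) making up most of the sum, PTPRC at or under 0.425 CPM and CD3E at or under 0.159 CPM. The summed level of 5 endothelial genes was 2.59 to 4.25 CPM in knockdown and 4.22 to 4.93 CPM in control libraries, with CDH5 at or under 0.180 CPM and KDR below every control, at 0.792, 1.49 and 0.475 CPM in knockdown and 1.71, 2.96 and 2.37 CPM in control (log2 fold change -1.35, edgeR adjusted p = 0.134). Of the endothelial genes, PECAM1, TIE1 and VWF overlapped the controls, with positive log2 fold changes (0.11, 0.09 and 0.32). The summed level of 6 fibroblast genes was 10.7 to 18.2 CPM in knockdown and 18.8 to 29.2 CPM in control libraries. The difference lay mostly in LUM (1.12 to 2.37 CPM in knockdown and 7.24 to 16.7 CPM in control). COL1A1, COL3A1 and DCN overlapped the controls, with log2 fold changes of 0.19, 0.29 and -0.26. The part of these markers in the results was not tested.

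The promoter windows below are shown so that the letters before the starts of some of these genes can be compared. RefSeq (GRCh38.p14) gave 12 windows, from 250 bases before to 50 after a transcript start, for 8 of the 10 genes (all but DUSP4 and DUSP5). Capitals mark the cyclic AMP response element TGACGTCA in DUSP1 and DUSP8, the TATA box TATAAA in DUSP1, and the EGR motif GCGNGGGCG, on either strand, in SPRY2 and SPRY4. Each stretch lies upstream of a RefSeq start and runs 5′ to 3′ on the minus strand. The SPRY4 stretch lies inside the annotated SPRY4 gene, before an internal start. Which starts these cells use was not tested.
DUSP1, chr5:172771210-172771330: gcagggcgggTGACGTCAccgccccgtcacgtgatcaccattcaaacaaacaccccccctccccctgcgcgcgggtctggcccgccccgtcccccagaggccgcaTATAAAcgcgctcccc
DUSP8, chr11:1572328-1572399: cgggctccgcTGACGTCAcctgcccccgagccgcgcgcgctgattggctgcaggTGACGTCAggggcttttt
SPRY2, chr13:80341149-80341270: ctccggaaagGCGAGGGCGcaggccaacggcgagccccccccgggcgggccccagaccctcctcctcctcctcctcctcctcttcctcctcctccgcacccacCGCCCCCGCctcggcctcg
SPRY4, chr5:142324424-142324452: ggtcggggggCGCCCTCGCtctgggcggc

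The full cyclic AMP response element stood in DUSP1 and DUSP8, and 1.85% of 35116 promoter windows of the same length hold it. The EGR motif stood in SPRY2 and SPRY4, against 9.43% of all windows. TATAAA was found in DUSP1 and SPRED2 (11.5% of all windows), and the AP-1 motif TGANTCA in SPRED2 alone of the 8 (7.71% of all windows). The shorter TGACG, which lies within TGACGTCA, was found in DUSP1, DUSP8, DUSP10, SPRY2, SPRY4 and SPRED2 (24.6% of all windows). Those shares count windows and not genes. Of the 12 windows of these genes, 6 held TGACG and 1 the AP-1 motif. The full cyclic AMP response element, the EGR motif and TATAAA were each in 2 of the 12. Neither the CArG box nor the ETS motif CCGGAAGT was in any of the 12 windows, and 1.29% and 4.14% of all windows hold them. Pearson r of log2 CPM over the 6 libraries was 0.58 for DUSP1 and DUSP8 and 0.54 for SPRY2 and SPRY4, the pairs that share a marked motif. DUSP1 and SPRY4, at 0.98, share none of the motifs marked in capitals, though both hold TGACG. The part of any motif in these values was not tested. A match is a description of the letters and not a measured binding site.

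Of the 10 genes, 4 were higher in every knockdown library than in every control (DUSP1, DUSP4, SPRY4 and SPRED1) and 0 were lower in every one. Over all tested genes 12.5% were above in this way and 14.3% below. All 10 log2 fold changes were positive, with a median of 0.52, where the median of all tested genes was 0.02 and 51.8% were positive. The 10 genes were chosen with earlier results of these data known, so the counts set beside all genes here are a description only. Without knockdown 1, 7 of the 10 were positive, and without knockdown 2, 8 were positive and the median was 0.31. edgeR's quasi-likelihood test with Benjamini-Hochberg adjustment over all genes called 0 of the 10, as it called 0 of 18267 genes (0%). At an unadjusted p under 0.05, 5 were higher and 0 lower, against 9.93% and 10.6% of all tested genes. DESeq2 called 3 higher and 0 lower (3.06% and 3.21% of all genes), and limma voom called 0. Knockdown 1 and 2 were above all 3 controls for more of the 10 genes than knockdown 3 was, but the genes differed. SPRED1 was higher in knockdown 3 than in knockdown 2, and SPRED2 was above all controls in knockdown 3 only. Knockdown 1 was above all 3 controls for 8 of the 10 genes (37.6% of all genes), knockdown 2 for 8 (38.4%) and knockdown 3 for 5 (30.6%), while knockdown 3 was below all 3 controls for 4 (31.7%). Knockdown 1 and 2 were below all controls for 0 of the 10 (38.5% and 39.0% of all genes).

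**Figure D1:**
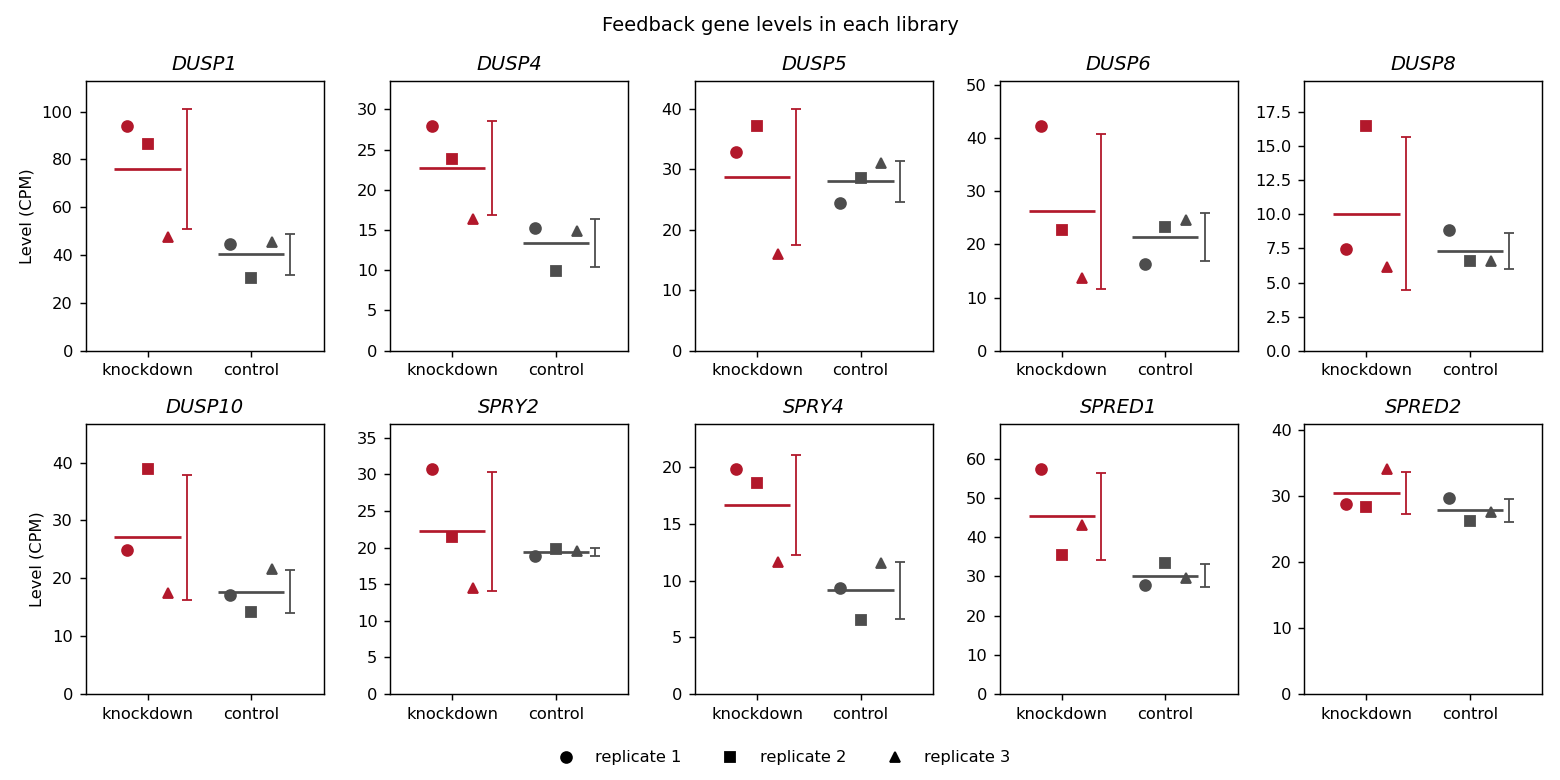
Level of each gene (y axis, CPM, each panel from 0) in the 3 knockdown and 3 control libraries, with a point for each library, a horizontal line at the group mean and a bar of 1 SD. The DUSP1, DUSP4, SPRY4 and SPRED1 groups do not overlap, and the knockdown triangle (replicate 3) is the lowest knockdown point for DUSP1 (47.4 CPM), DUSP5 (15.9 CPM) and DUSP6 (13.6 CPM).

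Among the nuclear phosphatases, DUSP1 and DUSP4 lay above every control in all 3 knockdown libraries, while DUSP5 overlapped the controls. DUSP1 (ENSG00000120129, GRCh38 chromosome 5, 172768090 to 172771195, minus strand) acts on p38, JNK and ERK, and its transcript is an immediate early response to serum and stress. It stood at 94.0, 86.6 and 47.4 CPM in knockdown 1, 2 and 3, against 44.8, 30.4 and 45.6 CPM in the controls. Knockdown 1 and 2 lay far above every control, and knockdown 3 lay just above the highest, with counting intervals (exact Poisson, 95%, counting error only) of 44.4 to 50.6 CPM in knockdown 3 and 42.7 to 48.7 CPM in control 3 that overlap. The means were 76.0 ± 25.0 CPM in knockdown and 40.2 ± 8.57 CPM in control (SD, n = 3 each), a log2 fold change of 0.92 (SE 0.25, edgeR adjusted p = 0.110, DESeq2 adjusted p = 0.0153). Only 3.76% of tested genes had a higher log2 fold change.

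DUSP4 (ENSG00000120875, chromosome 8, 29333064 to 29350668, minus strand), a nuclear phosphatase of ERK and JNK, ran in parallel with DUSP1. Its levels were 27.9, 23.8 and 16.4 CPM in knockdown 1, 2 and 3, against 15.3, 9.92 and 14.9 CPM in the controls. The groups did not overlap, but the counting interval of knockdown 3 (14.6 to 18.3 CPM) held the level of control 1. The log2 fold change was 0.76 (SE 0.24, edgeR adjusted p = 0.134, DESeq2 adjusted p = 0.0426).

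DUSP5 (ENSG00000138166, chromosome 10, 110497838 to 110511544, plus strand), a nuclear phosphatase specific for ERK, had another profile. It stood at 33.0, 37.2 and 15.9 CPM in knockdown 1, 2 and 3, against 24.4, 28.6 and 31.1 CPM in the controls. Knockdown 1 and 2 were above all 3 controls and knockdown 3 was below all 3, so the means of 28.7 ± 11.3 CPM in knockdown and 28.0 ± 3.36 CPM in control lay close together. The log2 fold change was 0.03, with a 95% interval of -0.56 to 0.63 (edgeR adjusted p = 0.956). Its processed pseudogenes DUSP5P1 and DUSP5P2 held at most 6 reads in any library.

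DUSP6 (ENSG00000139318, chromosome 12, 89347232 to 89353271, minus strand), the cytoplasmic phosphatase specific for ERK, was high in knockdown 1 alone. It stood at 42.2, 22.7 and 13.6 CPM in knockdown 1, 2 and 3, against 16.3, 23.2 and 24.6 CPM in the controls. Knockdown 1 was above, knockdown 2 within and knockdown 3 below the controls. The log2 fold change of 0.29 had a 95% interval of -0.46 to 1.05 (edgeR adjusted p = 0.658), and it was -0.24 without knockdown 1. An antisense transcript, AC024909.2, shares 1875 exon bases with DUSP6 and held at most 12 reads in any library. Whether counting used strand is not stated in the labels.

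The phosphatases that prefer JNK and p38, DUSP8 and DUSP10, were highest in knockdown 2. DUSP8 (ENSG00000184545, chromosome 11, 1554044 to 1571920, minus strand) stood at 7.46, 16.5 and 6.17 CPM in knockdown 1, 2 and 3, against 8.85, 6.56 and 6.54 CPM in the controls. Only knockdown 2 was above the controls, and the log2 fold change of 0.46 (SE 0.35, edgeR adjusted p = 0.482) was -0.11 without it. KRTAP5-AS1, an antisense transcript that overlaps the DUSP8 gene but shares 0 exon bases with it, stood at 1.75, 7.81 and 1.53 CPM in knockdown 1, 2 and 3, against 2.07, 1.12 and 1.56 CPM in the controls. Knockdown 2 is also the library with the most reads outside genes, and the part of either in the DUSP8 value was not tested. DUSP8P5, a processed pseudogene of DUSP8, held 41 to 80 reads a library against 117 to 310 for DUSP8, so reads may be split between the copies and the DUSP8 level is uncertain.

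DUSP10 (ENSG00000143507, chromosome 1, 221701424 to 221742176, minus strand) stood at 24.9, 38.9 and 17.4 CPM in knockdown 1, 2 and 3, against 17.2, 14.2 and 21.6 CPM in the controls. Knockdown 1 and 2 were above every control, and knockdown 3 lay among them. The log2 fold change was 0.62 (SE 0.28, edgeR adjusted p = 0.241), and it was 0.25 without knockdown 2. Like DUSP8 it was highest in the library with 37.5% of reads outside genes, and the part of that in the result was not tested.

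The 2 Sprouty genes, which encode membrane-associated inhibitors that act between growth factor receptors and RAF, had different profiles. SPRY4 (ENSG00000187678, chromosome 5, 142310427 to 142326455, minus strand) stood at 19.8, 18.6 and 11.7 CPM in knockdown 1, 2 and 3, against 9.35, 6.56 and 11.5 CPM in the controls. The groups did not overlap, but knockdown 3 exceeded control 3 by less than counting error, with intervals of 10.2 to 13.3 CPM in knockdown 3 and 10.1 to 13.1 CPM in control 3. The means were 16.7 ± 4.41 CPM in knockdown and 9.14 ± 2.49 CPM in control, a log2 fold change of 0.87 (SE 0.27, edgeR adjusted p = 0.126, DESeq2 adjusted p = 0.0307). SPRY2 (ENSG00000136158, chromosome 13, 80335976 to 80340951, minus strand) stood at 30.7, 21.4 and 14.5 CPM in knockdown 1, 2 and 3, against 18.8, 19.8 and 19.6 CPM in the controls. Its controls were nearly level, at 19.4 ± 0.528 CPM, while the knockdown libraries lay on both sides of them at 22.2 ± 8.15 CPM. The SPRY2 log2 fold change was 0.19 (SE 0.24, edgeR adjusted p = 0.688) and was -0.12 without knockdown 1.

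SPRED1, which brings the RAS inhibitor neurofibromin to the membrane, lay above every control in all 3 knockdown libraries, and unlike DUSP1, DUSP4 and SPRY4 it was not lowest in knockdown 3. SPRED1 (ENSG00000166068, chromosome 15, 38252326 to 38357249, plus strand) stood at 57.3, 35.3 and 43.2 CPM in knockdown 1, 2 and 3, against 27.7, 33.3 and 29.6 CPM in the controls. In knockdown 3 its counting interval (40.3 to 46.2 CPM) was clear of that of the highest control, control 2 (30.9 to 35.8 CPM). The lowest knockdown library was knockdown 2, whose counting interval (32.7 to 38.1 CPM) held the level of control 2. The log2 fold change was 0.59 (SE 0.19, edgeR adjusted p = 0.140, DESeq2 adjusted p = 0.0730), and it was 0.38 without knockdown 1. SPRED2 (ENSG00000198369, chromosome 2, 65310851 to 65432637, minus strand), its close relative, stood at 28.8, 28.3 and 34.0 CPM in knockdown 1, 2 and 3, against 29.6, 26.2 and 27.5 CPM in the controls. Only knockdown 3 was above all controls, and the log2 fold change of 0.13 had a 95% interval of -0.21 to 0.47 (edgeR adjusted p = 0.668). In bulk RNA, a change in the number of cells that express a gene and a change in RNA per cell cannot be told apart for any of these values.

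**Figure D2:**
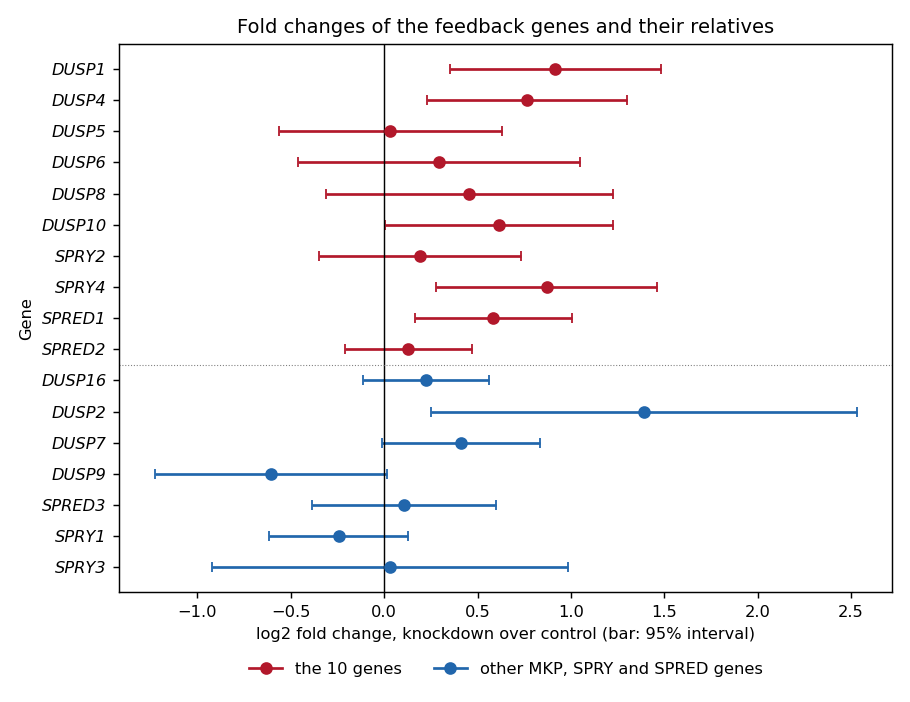
Log2 fold change of knockdown over control (x axis) for the 10 genes and for 7 other MAP kinase phosphatase, Sprouty and SPRED genes (y axis), with bars for the 95% interval of the edgeR fit. The intervals of DUSP1, DUSP4, DUSP10, SPRY4, SPRED1 and DUSP2 lie above 0, and 0 of the 17 genes passed the adjustment over all genes.

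Across the 6 libraries the 10 genes fell into more than 1 pattern. DUSP1, DUSP4 and SPRY4 followed each other closely, with Pearson r of log2 CPM of 0.99 for DUSP1 and DUSP4, 0.98 for DUSP1 and SPRY4 and 0.98 for DUSP4 and SPRY4. They were high in knockdown 1 and 2, near the upper controls in knockdown 3 and lowest in control 2. DUSP6 and SPRY2 formed another pair (r = 0.95), led by knockdown 1 and lowest in knockdown 3. SPRED2 ran against DUSP5 (r = -0.81). Each r is a description over 6 libraries that share 1 cell line and 2 groups. Relative to the mean of the controls, the median of the 10 genes was 0.79, 0.63 and 0.13 (log2) in the knockdown libraries 1, 2 and 3, and 0.02, -0.11 and 0.17 in the control libraries 1, 2 and 3. The small median in knockdown 3 averages over genes on both sides, with SPRED1, SPRED2, DUSP1, DUSP4 and SPRY4 above all controls, DUSP5, DUSP6, DUSP8 and SPRY2 below all controls, and DUSP10 alone among them.

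**Figure D3:**
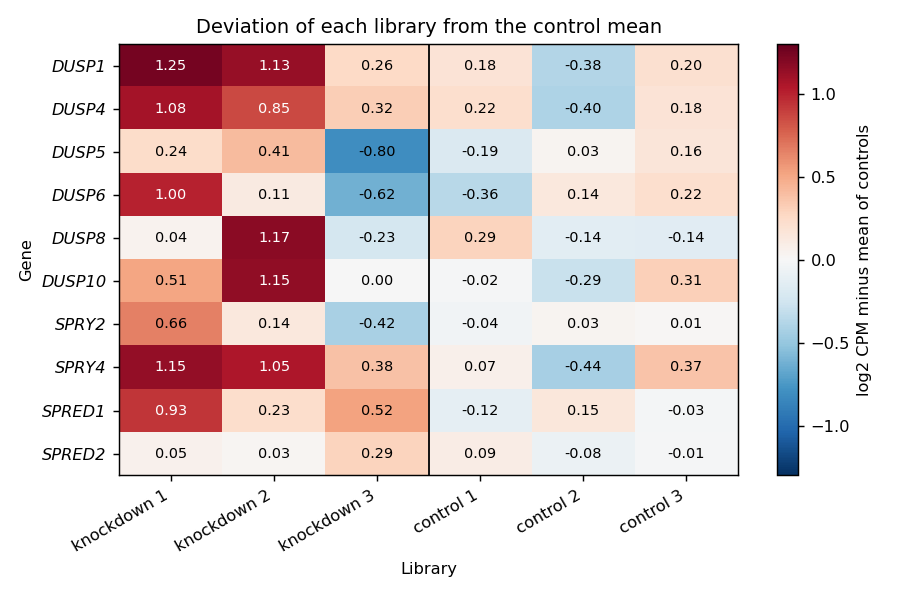
Log2 CPM of each gene (y axis) in each library (x axis) minus the mean of the 3 controls, with the value in each cell and a line between knockdown and control libraries. DUSP1, DUSP4 and SPRY4 are high in knockdown 1 and 2, DUSP8 and DUSP10 are highest in knockdown 2 (1.17 and 1.15), and DUSP5 is lowest in knockdown 3 (-0.80).

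Levels can be compared between genes only per length, and per kilobase of annotated exon (all isoforms merged, which understates genes whose longest isoforms are not used) DUSP1 was the highest of the 10 in both groups. DUSP1 averaged 37.6 ± 12.4 CPM per kilobase in knockdown and 19.9 ± 4.25 in control (SD, n = 3 each). DUSP5 came next at 11.0 ± 4.31 in knockdown and 10.7 ± 1.29 in control, and the ranges of DUSP1 and DUSP5 did not overlap in either group. SPRY2, DUSP10, SPRED2 and DUSP6 followed at 7.31, 9.28, 5.89 and 5.66 CPM per kilobase in knockdown and 6.39, 6.06, 5.39 and 4.61 in control. In control the range of DUSP10 overlapped those of SPRY2, SPRED2 and DUSP6. SPRED1 averaged 5.48 ± 1.35 in knockdown and 3.65 ± 0.345 in control. The lowest were DUSP4 (3.13 and 1.84 CPM per kilobase in knockdown and control), DUSP8 (2.17 and 1.59) and SPRY4 (2.54 and 1.39), whose ranges overlapped in control. The summed CPM of the 10 genes was 366, 329 and 220 in knockdown 1, 2 and 3, against 212, 199 and 232 in the controls. DUSP1 made up 25.7%, 26.3% and 21.5% of that sum in the knockdown libraries, against 21.1%, 15.3% and 19.6% in the controls.

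The number of the 10 genes that passed the test changed with the test, the filter and knockdown 3. With all 6 libraries it was 0 in edgeR, 3 in DESeq2 and 3 in edgeR with no filter. Over all genes, DESeq2 called 3.06% higher and 3.21% lower, and the fit with no filter called 694 higher and 880 lower of 43251. Without knockdown 3, edgeR called DUSP1 (log2 fold change 1.16, adjusted p = 0.00379), SPRY4 (1.07, adjusted p = 0.0141), DUSP4 (0.95, adjusted p = 0.0153) and DUSP10 (0.85, adjusted p = 0.0326) higher and 0 lower, and 6.46% of all genes were called higher and 8.30% lower in that fit. Over all 14 alternative settings the edgeR, DESeq2 or voom adjusted p ran from 0.000674 to 0.434 for DUSP1, from 0.0141 to 0.453 for SPRY4, from 0.0153 to 0.467 for DUSP4 and from 0.0326 to 0.590 for DUSP10. The lowest value for DUSP1 came from edgeR with no filter. The number of genes with every knockdown library above every control was 7 of 10 without knockdown 3, where 23.0% of all genes were above in this way, and 4 or 5 without any other library, against 15.2% to 20.4% of all genes. DUSP1, DUSP4, DUSP10, SPRY4, SPRED1 and SPRED2 kept a positive log2 fold change in all 14 settings. DUSP5, DUSP6, DUSP8 and SPRY2 turned negative in at least 1 of them.

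**Figure D4:**
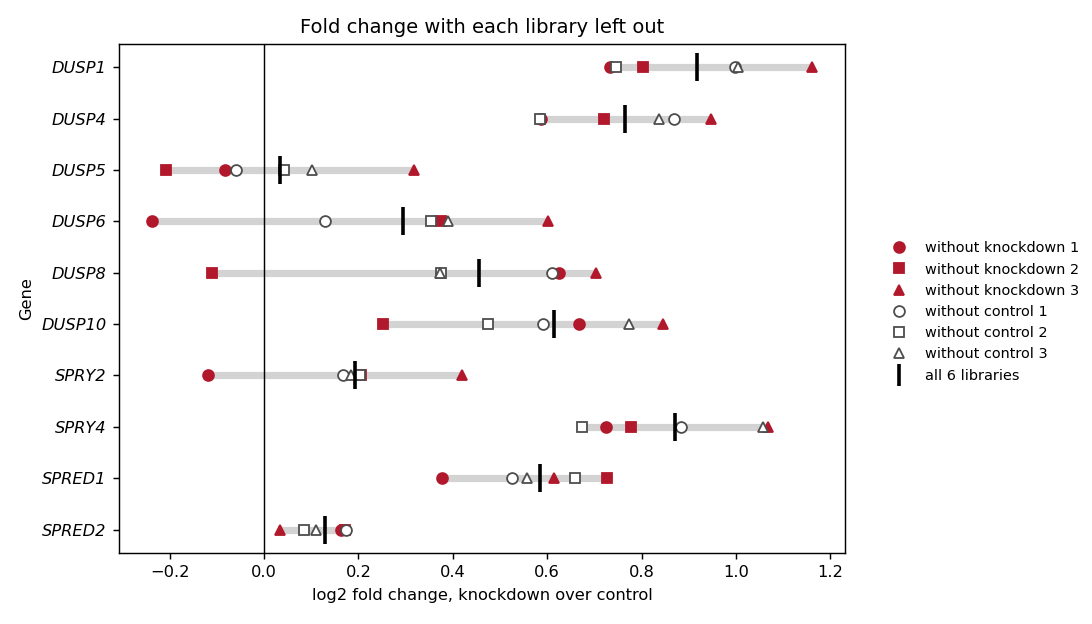
Log2 fold change of knockdown over control (x axis) of each gene (y axis) with each of the 6 libraries left out in turn, filled for knockdown and open for control libraries, beside the value from all 6 (vertical tick). Leaving out knockdown 3 gave the highest value for DUSP1 (1.16), and leaving out knockdown 1 took DUSP6 (-0.24) and SPRY2 (-0.12) below 0.

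The other 7 genes of the MAP kinase phosphatase, Sprouty and SPRED groups (DUSP genes outside the MAP kinase phosphatases were not included) had 5 positive and 2 negative log2 fold changes and a median of 0.11, where 51.8% of all tested genes were positive. DUSP2, an inducible nuclear phosphatase, stood at 2.77, 5.85 and 1.16 CPM in knockdown 1, 2 and 3, against 1.12, 0.943 and 1.66 CPM in the controls (log2 fold change 1.39, SE 0.52, edgeR adjusted p = 0.173). DUSP7, a cytoplasmic ERK phosphatase, stood at 21.3, 16.6 and 14.8 CPM in knockdown, above all 3 controls at 12.6, 13.5 and 13.4 CPM (log2 fold change 0.41). DUSP9, its close relative, was the other way round, at 2.71, 2.55 and 2.06 CPM in knockdown and 4.40, 3.82 and 2.92 CPM in control (log2 fold change -0.61). SPRY1 was likewise below every control, at 13.1, 13.5 and 13.9 CPM in knockdown and 16.3, 16.7 and 15.0 CPM in control (log2 fold change -0.24), where SPRY4 was above every control. DUSP16, a JNK and p38 phosphatase, averaged 99.0 ± 15.1 CPM in knockdown and 84.8 ± 3.58 CPM in control. SPRED3 averaged 8.69 ± 1.73 and SPRY3 1.85 ± 1.21 CPM in knockdown, against 8.07 ± 0.640 and 1.81 ± 0.322 CPM in control. edgeR called 0 of these 7 over all genes, 1 was higher at an unadjusted p under 0.05 (DUSP2, against 9.93% of all tested genes), and DESeq2 called 0 (3.06% higher and 3.21% lower over all genes).

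Among genes that ERK activity is known to switch on, 8 of 14 were higher and 2 lower at an unadjusted p under 0.05, against 9.93% and 10.6% of all tested genes, and edgeR called 0 over all genes while DESeq2 called 4 higher and 1 lower (3.06% and 3.21% of all genes). The list median was 0.73 (log2), and relative to the control mean the library medians were 1.15, 0.52 and 0.21 in knockdown 1, 2 and 3, and 0.08, -0.37 and 0.33 in the controls. FOSL1, an AP-1 subunit, stood at 12.8, 11.7 and 3.22 CPM in knockdown 1, 2 and 3, against 2.92, 1.48 and 3.22 CPM in the controls, so its knockdown 3 value lay level with control 3. FOS stood at 51.4, 44.4 and 18.7 CPM in knockdown, against 12.6, 3.14 and 15.6 CPM in control, and EGR1 at 88.5, 62.1 and 31.1 CPM, against 14.4, 4.81 and 19.3 CPM. ETV1, an ETS factor, ran the other way at 12.5, 10.5 and 19.4 CPM in knockdown and 20.2, 37.2 and 31.5 CPM in control (log2 fold change -1.07, edgeR adjusted p = 0.102). EPHA4 was also below every control (log2 fold change -0.43). CCND1, ETV4, ETV5 and HMGA2 were neither higher nor lower at an unadjusted p under 0.05. Their log2 fold changes were -0.0013, -0.26, 0.37 and 0.08. Immediate early genes were known to be higher in these libraries when the 10 genes were chosen, so these values are no independent support.

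The kinases and adaptors from receptor to ERK, listed together with the RPS6KA and MKNK kinases downstream of ERK, had no common direction. Of the 35 log2 fold changes 16 were positive and 19 negative, with a median of -0.04. At an unadjusted p under 0.05, 4 were higher and 2 lower, where 9.93% and 10.6% of all tested genes were, so the share higher was near that of all genes. edgeR called 0 over all genes and DESeq2 1 higher and 2 lower (3.06% and 3.21% of all genes). IGF1R, the insulin-like growth factor receptor, stood at 191, 189 and 111 CPM in knockdown 1, 2 and 3, against 91.8, 94.1 and 89.3 CPM in the controls (log2 fold change 0.83, edgeR adjusted p = 0.0976). MAPK3, which encodes ERK1, stood at 18.8, 28.2 and 34.8 CPM in knockdown and 39.3, 43.2 and 53.4 CPM in control (log2 fold change -0.73, edgeR adjusted p = 0.125). ERBB3, a receptor of the EGF receptor family, stood at 5.03, 10.7 and 15.3 CPM in knockdown and 20.4, 22.1 and 19.0 CPM in control (log2 fold change -0.99). RPS6KA3, a kinase that ERK activates, averaged 185 ± 38.3 CPM in knockdown and 128 ± 4.98 CPM in control.

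Of 16 tested growth factor ligands, 3 were higher and 1 lower at an unadjusted p under 0.05 (9.93% and 10.6% of all tested genes), and the median was 0.27. edgeR called 0 of them, and DESeq2 called 2 higher (3.06% of all genes). AREG and HBEGF, ligands of the EGF receptor, were high in knockdown 1 and 2 and within the range of the controls in knockdown 3. AREG stood at 6.45, 6.75 and 1.90 CPM in knockdown, against 1.93, 1.48 and 2.57 CPM in control, and HBEGF at 42.2, 38.4 and 18.6 CPM, against 20.4, 13.5 and 24.5 CPM. EGF ran the other way in knockdown 1 and 2, at 2.43, 2.92 and 9.81 CPM in knockdown and 9.66, 13.3 and 8.11 CPM in control. IGF2, the ligand of IGF1R, averaged 10.4 ± 5.45 CPM in knockdown and 2.86 ± 1.64 CPM in control (log2 fold change 1.87, edgeR adjusted p = 0.101).

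Other inhibitors of receptor and RAS signalling mostly had negative values, with 2 of 14 log2 fold changes positive and 12 negative and a median of -0.09, where 51.8% of all tested genes were positive. At an unadjusted p under 0.05, 1 was higher and 2 lower, near the 9.93% and 10.6% of all tested genes, and edgeR called 0 while DESeq2 called 1 higher (3.06% of all genes). ERRFI1, a feedback inhibitor of the EGF receptor, stood at 108, 119 and 67.3 CPM in knockdown 1, 2 and 3, against 57.4, 49.7 and 65.2 CPM in the controls (log2 fold change 0.77, edgeR adjusted p = 0.109). IL17RD, an inhibitor of FGF signalling, averaged 7.15 ± 1.69 CPM in knockdown and 11.1 ± 1.55 CPM in control, CBLB, a ubiquitin ligase, 11.3 ± 2.31 and 16.5 ± 2.89 CPM, and RASA1, a RAS GTPase-activating protein, 54.9 ± 9.87 and 67.1 ± 10.2 CPM.

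The JNK and p38 cascades, which end in the MAP kinases that DUSP8 and DUSP10 prefer, had a median of 0.01 over 20 genes. At an unadjusted p under 0.05, 2 were higher and 2 lower, near the 9.93% and 10.6% of all tested genes, and edgeR called 0 while DESeq2 called 1 each way (3.06% and 3.21% of all genes). MAPKAPK2, a kinase that p38 activates, stood at 93.8, 72.5 and 64.7 CPM in knockdown 1, 2 and 3, against 54.7, 48.9 and 49.8 CPM in the controls. MAPK10, a JNK gene, averaged 0.465 ± 0.204 CPM in knockdown and 1.73 ± 0.685 CPM in control, MAP2K6, which activates p38, 6.18 ± 3.97 and 11.9 ± 2.54 CPM, and MAPK13, a p38 gene, 40.1 ± 14.1 and 27.0 ± 5.96 CPM. The DUSP1 transcript is short-lived through AU-rich elements. All 5 listed genes of proteins that bind such elements had positive log2 fold changes (51.8% of all tested genes), from 0.13 to 0.74 with a median of 0.57. Of these, 2 were higher at an unadjusted p under 0.05 (9.93% of all genes), edgeR called 0, and DESeq2 called 2 higher (3.06% of all genes). ZFP36L2, an mRNA decay factor, averaged 33.3 ± 2.67 CPM in knockdown and 19.9 ± 2.73 CPM in control (log2 fold change 0.74, SE 0.17, edgeR adjusted p = 0.0871). ZFP36L1, its relative, averaged 30.6 ± 6.98 and 18.5 ± 3.20 CPM, ZFP36 17.2 ± 5.37 and 11.6 ± 4.28 CPM, and KHSRP 319 ± 55.7 and 272 ± 28.5 CPM, in knockdown and control. ELAVL1 averaged 160 ± 19.9 CPM in knockdown and 146 ± 15.0 CPM in control (log2 fold change 0.13). The 5 genes do not all encode decay factors, and the stability of the DUSP1 transcript was not measured.

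**Figure D5:**
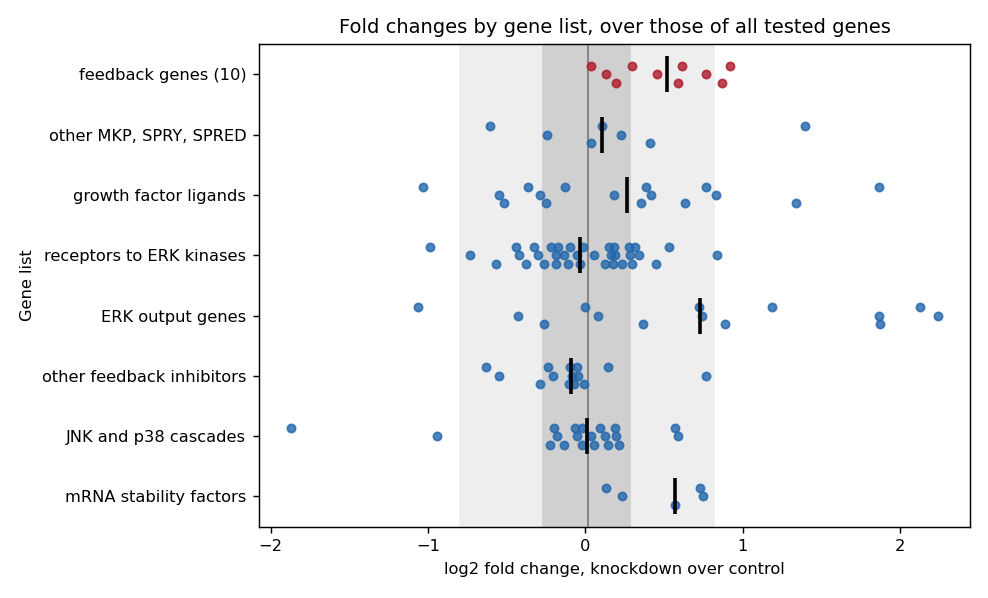
Log2 fold change of knockdown over control (x axis) of each tested gene in 8 lists (y axis), with a black tick at the list median, over the middle 50% (dark band) and middle 90% (light band) of all 18267 tested genes. The medians are 0.52 for the 10 feedback genes, 0.73 for ERK output genes and -0.04 for the kinases and adaptors from receptor to ERK (with RPS6KA and MKNK kinases downstream of ERK).

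The genes outside these lists whose profile was most like the mean z-score of the 10 genes over the 6 libraries were PPP2R2A, COL11A2, CNN1, NHLH2, PRR5L, DAPK3, MMP10 and PFKFB3, with Pearson r of 0.995 to 0.998. They are the 8 highest of 12356 protein-coding genes with a mean of at least 2 CPM, of which 229 had r above 0.95. PPP2R2A, a regulatory subunit of protein phosphatase 2A, stood at 177, 162 and 100.3 CPM in knockdown 1, 2 and 3, against 97.6, 80.8 and 107 CPM in the controls. MMP10, a matrix metalloproteinase, stood at 14.6, 10.0 and 0.422 CPM in knockdown 1, 2 and 3, against 0.584, 0.135 and 1.06 CPM in the controls. In both, knockdown 1 and 2 were high and knockdown 3 lay within the controls.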

How the data were processed

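Total RNA of 6 HEK293 libraries was sequenced from stranded, ribosomal RNA-depleted libraries, per the labels' protocols. The values the authors deposited are unnormalized counts of reads by Ensembl gene, in 1 table. The submitters' processing notes name bcl2fastq 2.18, TopHat2 2.0.13, HTSeq and hg38. The HTSeq version, annotation release and strand setting were not stated there. Its 5 special HTSeq rows were left out of all totals and tests. Symbols, positions and exon lengths came from GENCODE release 29 (GRCh38), which matched 57055 of 60675 identifiers and 145 of 145 list entries.

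The test was that of edgeR 4.0.16, run in R 4.3.3 (TMM, filterByExpr, two-sided quasi-likelihood F test, Benjamini-Hochberg over all 18267 genes, threshold 0.05) and checked on simulated counts. Standard errors are the log2 fold change divided by the square root of F. log2 CPM used a prior count of 2. Alternatives used DESeq2 1.42.0, limma 3.58.1, other scalings and filters, a replicate block and leaving out each library. Libraries of the same group differed beyond sampling noise (chi-square per degree of freedom 10.03 to 63.7).

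The members and lists were chosen with earlier results of these data known. The text names all 10 members, the 7 other MAP kinase phosphatase, Sprouty and SPRED genes listed, up to 4 genes of each further list by smallest p (regardless of direction), and the 8 genes most like the members' mean profile. Neighbouring, pseudogene and marker genes, and further genes of the ERK output and mRNA stability lists, were named after their values were seen.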

Additional observations from a re-analysis of the deposited data

How the results depend on the processing

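Over all genes, 0 were called by edgeR with all 6 libraries (1813 higher and 1933 lower at an unadjusted p under 0.05). DESeq2 called 1145, and edgeR with no filter called 1574 of 43251. With the replicate block 19 were called, and with 1 library left out 0 to 2815. Of the 10 genes, 0 were called by edgeR, 3 by DESeq2 and 3 with no filter, 0 with the replicate block, and 0 to 4 with 1 library left out, the most being without knockdown 3. The number with every knockdown library above every control ran from 4 to 7 with 1 library left out, a count chosen with its leave-one-out values after seeing the data, as were fits on protein-coding genes only. The median log2 fold change of the 10 genes stayed between 0.31 and 0.66. DUSP5 turned to -0.052 with voom, -0.0025 with no filter, -0.038 with the replicate block, and ran from -0.21 (without knockdown 2) to 0.32 with 1 library left out, being negative also without knockdown 1 and control 1. With 1 library left out, DUSP6 ran from -0.24 (without knockdown 1) to 0.60, SPRY2 from -0.12 (without knockdown 1) to 0.42 and DUSP8 from -0.11 (without knockdown 2) to 0.70. MOCS2, at -0.01, turned to 0.0095 with upper-quartile factors and with protein-coding genes only, and ran from -0.094 to 0.027 with 1 library left out. The cause was not tested. Replicate numbers did not pair the libraries (r of deviations 0.11, -0.17 and -0.12 for numbers 1, 2 and 3). Counts ran from 117 (DUSP8) to 1662 (DUSP1) reads per gene and library, but the precision did not follow the counts alone. The SE was 0.25 for DUSP1 (676 to 1662 reads) and 0.15 for SPRED2 (509 to 659 reads).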
